A study of Mus musculus with 4 samples.

Results

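The RNA of 10 surface antigens, by which intestinal mesenchymal stromal cells (MSC) are sorted or told apart by flow cytometry, was followed across MSC classes of mouse small intestine and colon. The 10 genes, out of 28692 gene rows in the data, were taken from a fixed list of sort antigens: Itgb1, Cd81, Cd9, Thbd, Cd34, Thy1 (which encodes CD90), Ly6a (which encodes Sca-1), Ly6c1, Dpp4 and Cd24a. Single-cell RNA sequencing of droplets had been done on 4 libraries, 2 from the lamina propria of the small intestine and 2 from that of the colon. All came from untreated female C57BL6/Nrj mice of 8 to 10 weeks with no engineered allele named, in 2 experiments of 3 mice whose cells were pooled. The muscle coat was taken off first, and live cells were sorted that lacked CD45, Ter119, CD31, BP3, EpCAM and L1CAM and carried Itgb1. The protein of 1 of the 10 antigens, Itgb1, was thus part of the gate that every library shares, and the level of its RNA in the cells that the gate left out was not measured.

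A surface antigen is useful for sorting when its level differs between cell classes that live side by side, so that an antibody can pull one class away from the others without breaking the cells open. Fibroblasts (FB) of the gut wall are commonly divided by PDGFRalpha into a bright population next to the epithelium and dimmer populations deeper in the tissue, and CD34, CD81 and CD90 are among the antigens used to divide the dimmer ones further. Itgb1 is the beta chain shared by many collagen, laminin and fibronectin receptors, CD81 and CD9 are tetraspanins that organise other membrane proteins, and thrombomodulin, the product of Thbd, is a thrombin receptor best known from endothelial cells.

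After filters, 30685 of 34983 barcodes remained, and 29337 of them were placed in 6 MSC classes by clusters built without any of the 10 antigens and named from markers that contain none of them. Medians per library ran from 2734.5 to 8810 UMIs (unique molecular identifiers, each 1 captured RNA molecule) per cell, with 14341443 to 52269372 UMIs in a library. The replicate 1 libraries were the deeper per cell and held 1828 and 2399 cells, against 14350 and 12108 in the replicate 2 libraries. Small intestine replicate 2 and colon replicate 2 shared 69 barcodes and the other pairs of libraries between 0 and 8. Which libraries were made with a 3′ and which with a 5′ kit is not given in the sources used here.

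The classes were PDGFRahi FB (5460 cells over the 4 libraries), CD81+ FB (6193), smooth muscle cells (SMC, 1403), pericytes (278), and the remaining FB divided by the receptor gene Fgfr2 into Fgfr2-high FB (5879) and Fgfr2-low FB (10124). The split stands for the Fgfr2+ FB of both intestines and for what are otherwise called Igfbp5+ FB in the small intestine and CD90+ FB in the colon, since Thy1 itself may not name a class here. Summed marker levels put each of PDGFRahi FB, CD81+ FB, Fgfr2-high FB, SMC and pericytes first for its own panel in all 4 libraries. Fgfr2-low FB came first for the Igfbp5+/CD90+ panel in 3 libraries, and in small intestine replicate 2 the panel stood at 1007 CPM (the UMIs of a gene or panel in the summed cells of a class and library, scaled to the same total in each) against 1047 CPM in PDGFRahi FB. This class also took in a small intestinal cluster of 2874 cells that scored 0.219 for that name, under the minimum of 0.25. The Fgfr2 split was made within each intestine, and the levels cross. That cluster had 130.4 CPM of Fgfr2, above the 124.1 CPM of a colonic Fgfr2-high cluster of 1775 cells, while the small intestinal Fgfr2-high cluster had 331.1 CPM. Colon and small intestine therefore compare different clusters at different Fgfr2 levels in these 2 classes. With clusters of all 4 libraries together, colonic Fgfr2-high FB numbered 300 and 1122 in place of 644 and 2441. On the panel of Fgfr2-high FB, small intestinal SMC came close, at 11009 and 8585 CPM against 11267 and 9587 CPM. Their own SMC panel stood at 6337 and 4420 CPM, against 11335 and 9348 CPM in colonic SMC. How this bears on antigen levels in SMC was not tested. Small intestine replicate 2 held only 30 pericytes, so values of that class rest on 48462 UMIs there. Since the mice were pooled and the labels do not tie libraries to animals, p-values measure the spread between 2 libraries per intestine.

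**Figure D1:**
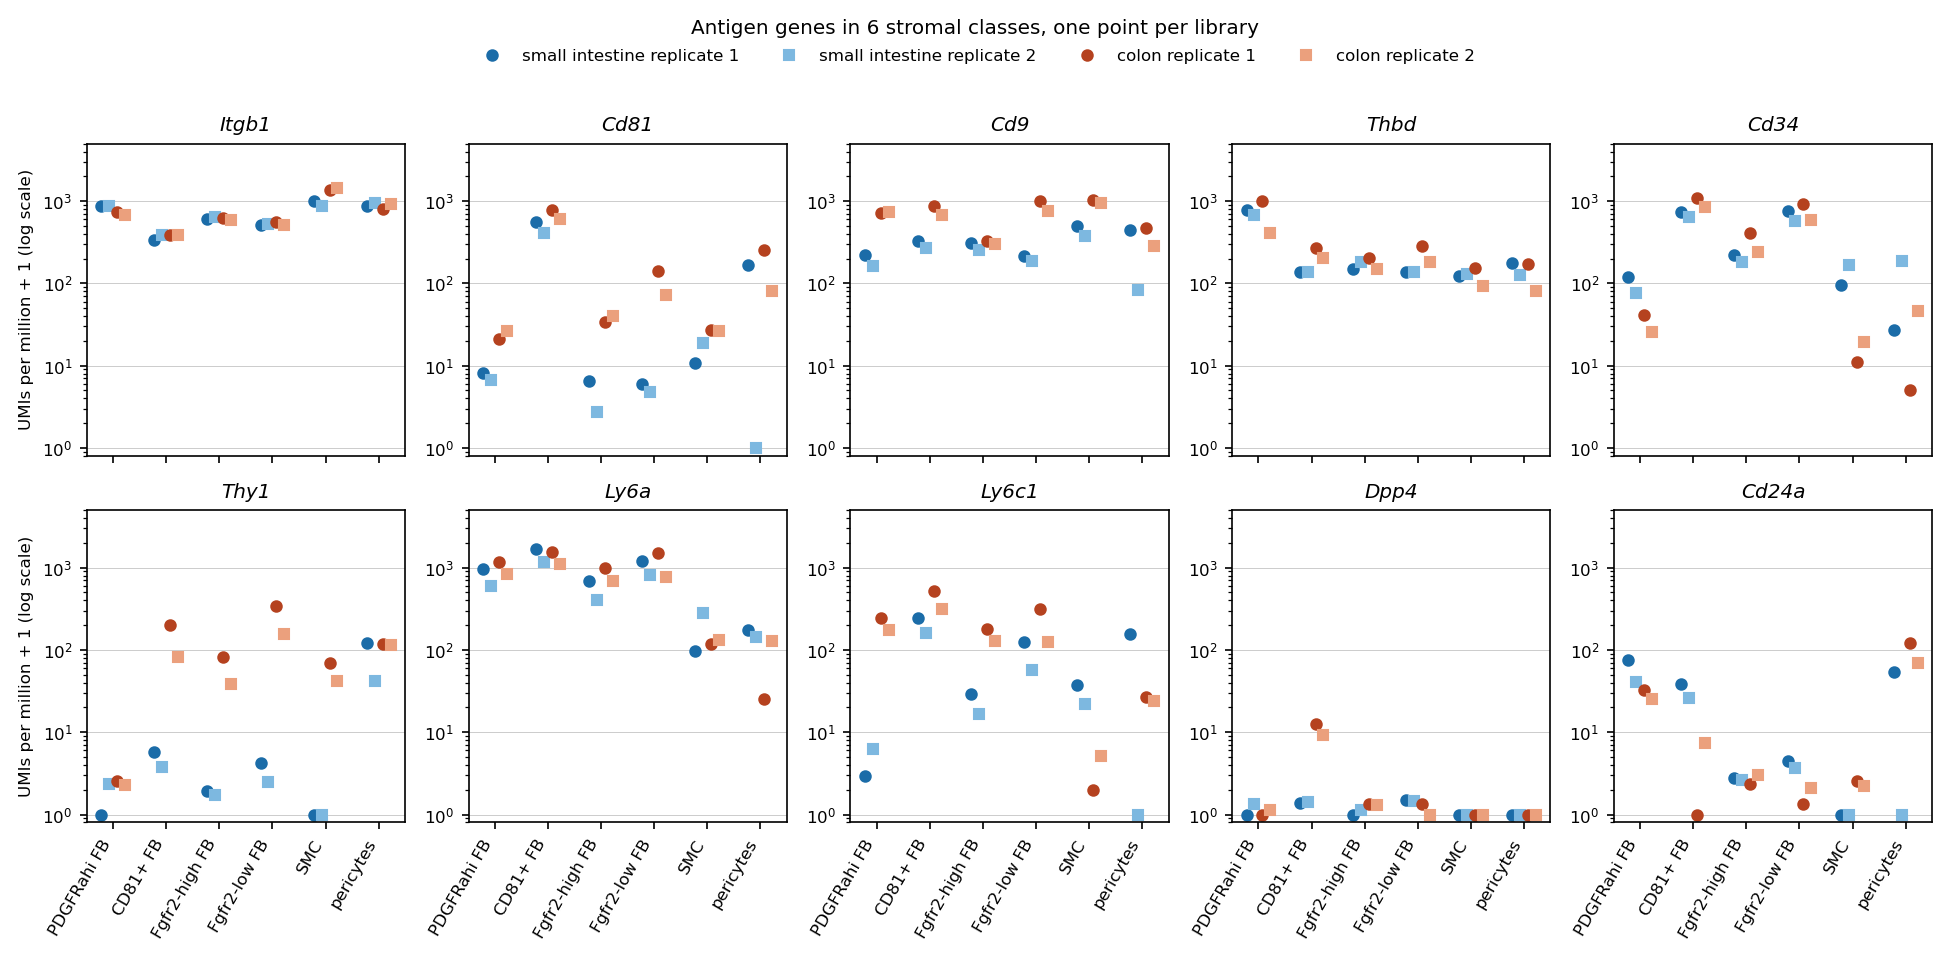
Levels of the 10 antigens, as CPM + 1 on a log axis, in the 6 MSC classes, with 1 point per library and small intestine and colon in separate colours. Cd81 stands highest in CD81+ FB and Thbd in PDGFRahi FB in both intestines, whereas the small intestinal points of Thy1 lie at or under 4.77 CPM in every class but pericytes.

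Itgb1, which lies at chr8:128685654-128733200 (plus strand, GRCm38), was high in every class of the cells, all of which had been gated on its protein. In SMC it stood at 991 and 871 CPM in the small intestinal libraries and at 1379 and 1430 CPM in the colonic ones. CD81+ FB had the lowest level of the 6 classes, with 333 and 383 CPM in small intestine and 386 and 390 CPM in colon. Every SMC library lay above every CD81+ FB library. The order of the class means was the same in both intestines: SMC, pericytes, PDGFRahi FB, Fgfr2-high FB, Fgfr2-low FB and CD81+ FB. In the small intestine the first 2 overlapped between libraries (931 ± 85.4 and 913 ± 51.3 CPM, SD, n = 2), and in the colon no neighbours did. With each cell thinned to 1500 UMIs, 39.8%, 43.5%, 39.8% and 42.3% of CD81+ FB had an Itgb1 UMI in the libraries, given here and below in the order small intestine 1, small intestine 2, colon 1 and colon 2. All of these cells had been sorted as Itgb1+, so a cell without a UMI is not a cell without the protein.

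Among the tetraspanins, Cd81 (chr7:143052739-143067934, plus strand) marked CD81+ FB in both intestines, although neither clusters nor names had used it. Its level there was 550 and 412 CPM in small intestine and 781 and 611 CPM in colon. In PDGFRahi FB it was 7.18 and 5.61 CPM in small intestine and 20 and 25.7 CPM in colon. Fgfr2-low FB, which share high Cd34 with CD81+ FB, had 4.98 and 3.80 CPM in small intestine and 140 and 70.3 CPM in colon, so that the 2 classes did not overlap in any library but lay closer together in the colon. Pericytes were the second class by mean in both intestines and also the most uneven, with 166 and 0 CPM in small intestine and 253 and 80.0 CPM in colon.

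A pair of classes was counted as separated in an intestine when the CPM of one was at least 2 times that of the other in both libraries, in the same direction, with the higher at 20 CPM or more. By this count, which is a description with no test because the antigens were chosen for their pattern over classes, Cd81 separated 5 of the 15 class pairs in both intestines and 5 more in the colon alone. The 5 shared pairs were those of CD81+ FB with each of the other classes. The 5 of the colon set pericytes above PDGFRahi FB, Fgfr2-high FB and SMC, and Fgfr2-low FB above PDGFRahi FB and SMC.

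Cd9 (chr6:125460266-125494791, minus strand) behaved otherwise and separated 0 pairs in both intestines, 2 in the small intestine alone and 6 in the colon alone. In the small intestine the FB classes ran from 163 to 322 CPM, and most neighbouring classes overlapped. In the colon Cd9 stood at 720 and 733 CPM in PDGFRahi FB, 859 and 674 CPM in CD81+ FB and 1005 and 764 CPM in Fgfr2-low FB. Fgfr2-high FB stayed at 330 and 304 CPM there, close to their 312 and 254 CPM in small intestine. Fgfr2-high FB were therefore the low class for Cd9 among colonic FB, which they were not among small intestinal FB. SMC had the highest mean level in both intestines, at 436 ± 79.8 CPM in small intestine and 992 ± 57.1 CPM in colon (SD, n = 2).

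Thbd, a gene of 1 exon at chr2:148404466-148408188 (minus strand), marked PDGFRahi FB in both intestines. These cells had 788 and 674 CPM in small intestine and 1006 and 412 CPM in colon. In the other 5 classes Thbd ran from 123 to 181 CPM in the small intestine and from 80.0 to 282 CPM in the colon, without overlap with PDGFRahi FB in either intestine. The 5 pairs that hold PDGFRahi FB were separated in both intestines and no other pair was in either. The colonic libraries differed from each other by more than the small intestinal ones, with an SD of 421 CPM around 709 CPM against 80.6 around 731 (n = 2).

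Cd34 (chr1:194938819-194961279, plus strand), which encodes a sialomucin of progenitor cells, vessels and many fibroblasts, separated the most pairs in both intestines, 8 of 15, and 3 more in the colon alone. This lead was lost when each cell was placed by its own highest marker score in place of its cluster. Cd81, Thbd and Cd24a then separated 8, 5 and 4 pairs in both intestines, and Cd34 3. By cluster, CD81+ FB had 732 and 646 CPM of Cd34 in small intestine and 1084 and 856 CPM in colon. Fgfr2-low FB had 748 and 579 CPM in small intestine and 922 and 594 CPM in colon, which overlapped with CD81+ FB in both intestines. Fgfr2-high FB followed with 219 and 183 CPM in small intestine and 412 and 242 CPM in colon. PDGFRahi FB were the low FB class, at 118 and 74.9 CPM in small intestine and 39.8 and 25.0 CPM in colon. SMC had 93.5 and 164 CPM in the small intestine and 10.1 and 18.2 CPM in the colon.

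Thy1, at chr9:44043384-44048579 (plus strand), encodes CD90, a small glycoprotein held in the membrane by a lipid anchor and found on fibroblasts, neurons and T cells. In the small intestine it was nearly confined to pericytes, with 120 CPM (50 UMIs) in replicate 1 and 41.3 CPM (2 UMIs) in replicate 2. Its small intestinal levels were 3.24 and 1.46 CPM in Fgfr2-low FB, 4.77 and 2.78 CPM in CD81+ FB, 0.906 and 0.728 CPM in Fgfr2-high FB and 0 and 1.32 CPM in PDGFRahi FB. Small intestinal SMC had 0 UMIs in both libraries.

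In the colon Thy1 was present in all classes but PDGFRahi FB. Fgfr2-low FB had 339 and 157 CPM, CD81+ FB 199 and 80.9 CPM, pericytes 117 and 114 CPM, Fgfr2-high FB 80.4 and 37.4 CPM, and SMC 68.5 and 40.6 CPM. Colonic PDGFRahi FB had 1.56 and 1.28 CPM, from 10 and 17 UMIs. CD81+ FB overlapped with both Fgfr2-low FB and pericytes, whereas Fgfr2-low FB lay above pericytes without overlap and stood first within each colonic library. Of the 15 pairs, 1 was separated in both intestines (pericytes above PDGFRahi FB), 4 in the small intestine alone, all of them with pericytes, and 7 in the colon alone. With pericytes left out, a choice made after seeing the data, the counts over the 10 remaining pairs were 0, 0 and 7.

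Ly6a and Ly6c1 belong to the LY6 family, small proteins with a lipid anchor whose genes lie in a row on chromosome 15. In classes drawn by cluster, Ly6a (chr15:74994877-74998031, minus strand) divided FB from mural cells in both intestines and divided FB among themselves little. FB libraries ran from 405 to 1669 CPM in the small intestine and from 685 to 1551 CPM in the colon. SMC and pericytes ran from 95.9 to 278 CPM in the small intestine and from 24.2 to 131 CPM in the colon, with no overlap. All 7 pairs separated in both intestines set an FB class above SMC or pericytes. The count of 7 became 2 with at least 1000 genes per cell. It became 0 with each cell placed by its own highest marker score, where Ly6a separated 0 pairs in small intestine and 8 in colon. CD81+ FB had the highest mean in each intestine, 1424 ± 347 and 1327 ± 317 CPM (SD, n = 2), and overlapped with Fgfr2-low FB in both.

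Ly6c1 (chr15:75044018-75048830, minus strand) has a close neighbour, Ly6c2, at chr15:75108158-75111970. The coding sequences, 393 bases each, differ at 9 bases and are 97.7% identical, and 36.7% of the windows of 50 bases in the Ly6c1 transcript also occur in other genes, most often Ly6c2. The stretch with the most differences, coding bases 7 to 36 on the minus strand, is shown. A read over it can tell the 2 genes apart, and so can reads over other stretches that differ. Capitals mark the 5 bases that differ, from the annotation of GRCm38 at chr15:75048476-75048505 and chr15:75111632-75111661.
Ly6c1: aCtTctcacActacaaagtcctgtGtgctC
Ly6c2: aGtActcacGctacaaagtcctgtTtgctG
Reads that match both genes may not be counted for either, so Ly6c1 levels are uncertain by an unknown part. Ly6c2 itself ran from 0 to 1.77 CPM over all MSC classes and libraries, and from 12.1 to 117 CPM in the plasma cells that were removed. For Ly6a 10.0% of such windows occur elsewhere, for Cd24a 3.90%, for Cd9 1.19% and for the other 6 antigens 0%.

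Ly6c1 was highest in CD81+ FB in both intestines, with 243 and 160 CPM in small intestine and 520 and 313 CPM in colon. The clearest difference between the intestines lay in PDGFRahi FB, which had 1.96 and 5.28 CPM in small intestine (3 and 16 UMIs) and 243 and 176 CPM in colon (1557 and 2341 UMIs). Fgfr2-high FB had 28.1 and 15.6 CPM in small intestine and 180 and 127 CPM in colon. Fgfr2-low FB had 123 and 55.3 CPM against 311 and 123 CPM, which overlapped between the intestines. SMC went the other way, with 36.9 and 21.2 CPM in small intestine and 1.01 and 4.14 CPM in colon. Of the 15 pairs, Ly6c1 separated 3 in both intestines, 3 in the small intestine alone, 6 in the colon alone, and 1 in opposite directions. That pair was PDGFRahi FB and SMC, with SMC higher in small intestine and PDGFRahi FB higher in colon. Without pericytes the first 3 counts were 3, 3 and 1.

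Dpp4 (chr2:62330073-62412231, minus strand), which encodes a surface peptidase also known as CD26, was detected almost only in colonic CD81+ FB. It stood there at 11.6 and 8.35 CPM, from 18 and 84 UMIs. Small intestinal CD81+ FB had 0.367 and 0.427 CPM, from 1 and 4 UMIs, and no other class exceeded 0.498 CPM in any library. No pair reached the minimum of 20 CPM, so none was counted. Cd24a (chr10:43578284-43584265, plus strand), which encodes a mucin-like adhesion molecule, was low throughout and highest among FB in PDGFRahi FB, at 75.1 and 39.3 CPM in small intestine and 31.7 and 24.1 CPM in colon. CD81+ FB had 37.8 and 24.9 CPM of Cd24a in small intestine and 0 and 6.46 CPM in colon. Pericytes had 53.0 and 0 CPM in small intestine and 120 and 68.5 CPM in colon. Cd24a separated 3 pairs in both intestines, those of PDGFRahi FB with Fgfr2-high FB, Fgfr2-low FB and SMC, 3 in the small intestine alone and 6 in the colon alone.

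Taking the 10 antigens as a set, 34 pairs of an antigen and a class pair were separated in both intestines in the same direction. Cd34, Ly6a, Cd81 and Thbd gave 8, 7, 5 and 5 of them. Cd24a and Ly6c1 gave 3 each, Itgb1 2 and Thy1 1. With each cell placed by its own highest marker score, Cd34, Ly6a, Cd81 and Thbd gave 3, 0, 8 and 5. With at least 1000 genes per cell they gave 6, 2, 4 and 4.

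The question which antigens differed between the intestines within a class was tested with edgeR's quasi-likelihood test on UMIs summed per library and class, with Benjamini-Hochberg adjustment over all genes tested in the class. A call needed both an adjusted p under 0.05 and a change of more than 1.5 on the log2 scale in either direction. Over the 6 classes, 52 combinations of class and antigen passed the filter on low counts, and 10 were called, 9 higher and 1 lower in the colon. Thy1 was called in 4 classes, Ly6c1 in 2, and Cd81, Cd9, Dpp4 and Cd34 in 1 each. Itgb1, Thbd, Ly6a and Cd24a were called in 0 of the classes in which they were tested. In alternative settings, Cd24a was called in 3 of 11 in CD81+ FB and in 1 of 10 in Fgfr2-low FB.

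In Fgfr2-low FB, 3 of 9 tested antigens were called, all higher in colon, where 1.90% of all 11973 genes tested were called in either direction. Thy1 rose by a log2 fold change of 6.74 ± 0.65 (SE, adjusted p = 0.0289, edgeR), with both colonic libraries above both small intestinal ones. Cd81 rose by 4.47 ± 0.43 on the log2 scale (adjusted p = 0.0289, edgeR). Cd9 rose by 2.01 ± 0.27 on the log2 scale (adjusted p = 0.0482, edgeR), the weakest of the 3, and its call was lost without any 1 of the 4 libraries, with adjusted p from 0.0514 to 0.352. Without small intestine replicate 2 all 3 calls were lost, Thy1 with an adjusted p of 0.0933 and Cd81 with 0.124, and without small intestine replicate 1 Thy1 alone remained called, at 0.0456. The calls also depended on how the class was drawn. With a per-cell marker gate, which placed each cell by its own highest marker score in place of its cluster, the Cd81 difference was 1.78 on the log2 scale (adjusted p = 0.0528, edgeR), and with clusters of all 4 libraries together its adjusted p was 0.0506 (edgeR). Cd9 lost its call under both (1.60 and 1.49), and Thy1 was called under both. The 5 plasma cell markers summed to 51.1 and 146 CPM in small intestinal and 201 and 158 CPM in colonic Fgfr2-low FB, without overlap, and the colonic cluster scored 1.095 for plasma cells against 1.109 for its own panel. The part of plasma cell RNA in these differences was not tested. Cd34, which is used beside CD90 to gate these cells, had a log2 fold change of 0.06 ± 0.32 and an adjusted p of 0.977 (edgeR).

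In CD81+ FB, 2 of 10 were called, against 0.868% of 11527 genes. Thy1 rose by a log2 fold change of 5.17 ± 0.60 (adjusted p = 0.0269, edgeR) and was called without any 1 library, but not with doublets kept (adjusted p = 0.0885). Dpp4 rose by 4.40 ± 0.55 (adjusted p = 0.0310, edgeR) on 1 and 4 UMIs in the small intestinal libraries, and lost its call without small intestine replicate 2 (adjusted p = 0.0706) or colon replicate 2 (0.0742), and with the per-cell gate (0.113). Cd81 in its own class differed by 0.40 ± 0.33 (log2, adjusted p = 0.851). Cd24a gave a log2 fold change of -2.92 ± 0.82 with an adjusted p of 0.274 (edgeR). It was called in 3 of 11 alternative settings, over which its log2 fold change ran from -10.20 to -2.38.

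In Fgfr2-high FB, Thy1 and Ly6c1 were called, 2 of 9, against 1.15% of 12040 genes. Thy1 rose by a log2 fold change of 6.36 ± 0.60 (adjusted p = 0.0286, edgeR), from 1 and 5 UMIs in the small intestinal libraries. Ly6c1 rose by 3.03 ± 0.37 (adjusted p = 0.0414, edgeR). Both calls were lost without small intestine replicate 1 (adjusted p = 0.0848 and 0.101) or replicate 2 (0.249 and 0.267), and with the per-cell gate (0.0531 and 0.289). The Ly6c1 call was also lost with doublets kept (0.0512) and with clusters of all 4 libraries together (0.0872), and its log2 fold change fell to 1.84 with the gate. Cd81 missed the threshold with a log2 fold change of 3.92 ± 0.54 and an adjusted p of 0.0505, although it passed in 9 of 11 alternative settings.

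In PDGFRahi FB, Ly6c1 alone of 8 tested antigens was called, against 1.69% of 11523 genes, with a log2 fold change of 5.87 ± 0.49 (adjusted p = 0.0201, edgeR). The call was lost without small intestine replicate 1 (adjusted p = 0.102) or replicate 2 (0.117), with doublets kept (0.0635) and with the per-cell gate (0.0562). Cd9 and Cd81 gave log2 fold changes of 2.07 ± 0.31 and 2.02 ± 0.37 with adjusted p of 0.0570 and 0.0789 (edgeR), and all colonic libraries lay above all small intestinal ones for both. Both were called with the replicate number as a block, at log2 fold changes of 2.08 and 2.09 (adjusted p = 4.1e-17 and 2.14e-11, edgeR), although the labels do not say that the numbers pair the libraries. Thy1 and Dpp4 had too few UMIs to be tested in this class.

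SMC had 2 calls among 8 tested antigens, against 2.27% of 9388 genes. Thy1 rose from 0 UMIs to 233, at least 18.1-fold against a floor of 3 counts over both small intestinal libraries (adjusted p = 0.0252, edgeR), and was called in all 11 alternative settings. Cd34 fell by 3.16 ± 0.46 on the log2 scale (adjusted p = 0.0252, edgeR), with no overlap between the intestines, and lost its call with doublets kept (adjusted p = 0.364) and with the per-cell gate (0.258). Ly6c1 gave -3.34 ± 0.68 and missed the threshold (adjusted p = 0.0703, edgeR), but was called with the replicate block (2.11e-08). The sort antigen Pdgfra, which is no member of the list, was also lower in colonic SMC, at 7.61 and 14.5 CPM against 56.6 and 99.3 CPM in small intestine (log2 fold change -2.80 ± 0.48, adjusted p = 0.0415, edgeR). Its part in the Cd34 difference was not tested. Pericytes gave 0 calls among 8 tested antigens by edgeR and 0 by DESeq2, with 0 of them at an unadjusted p under 0.05. Over all 4914 genes tested in pericytes 0% were called and 116 had an unadjusted p under 0.05.

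**Figure D2:**
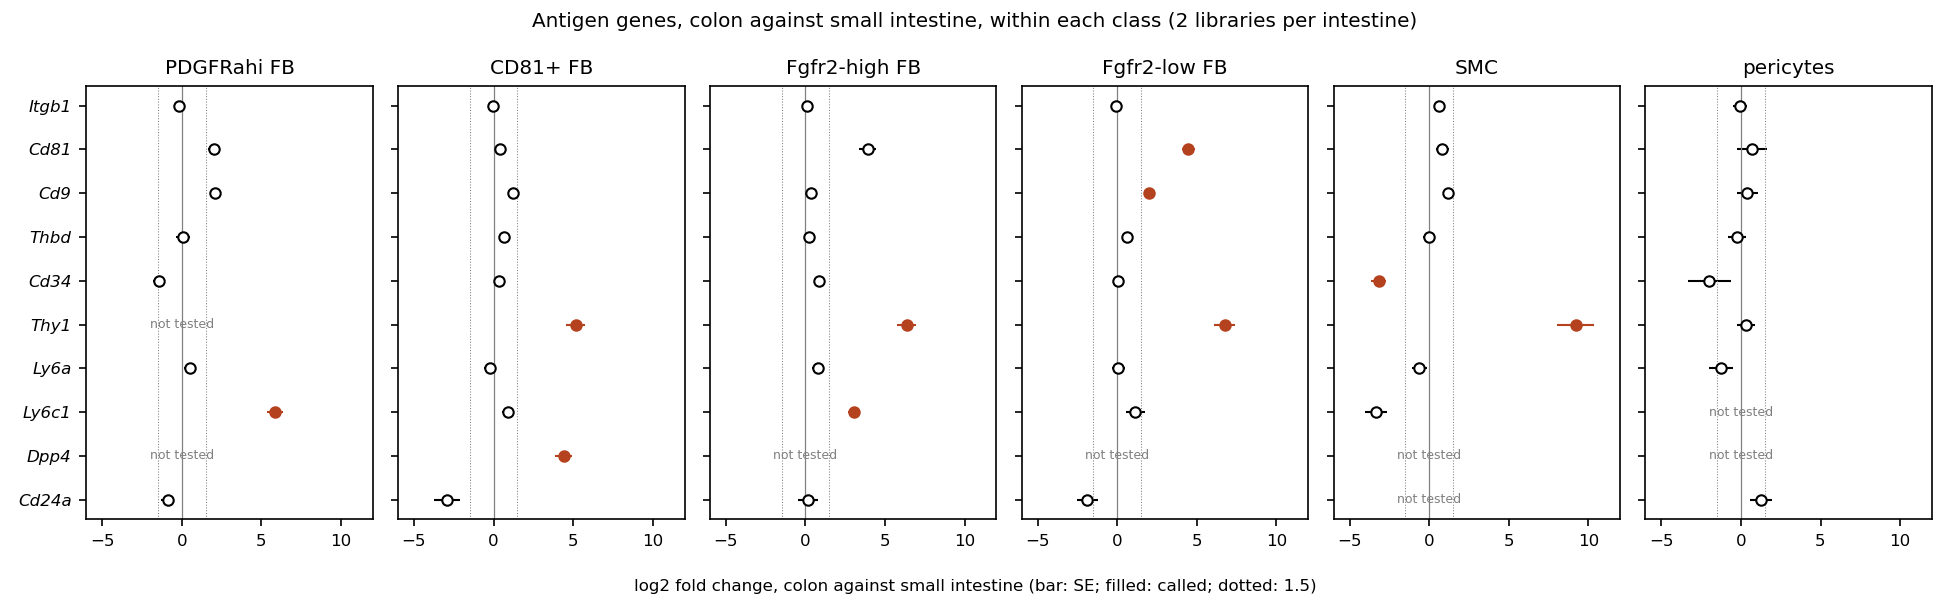
Log2 fold change of colon over small intestine for each antigen in each MSC class, from edgeR on sums of 2 libraries per intestine, with bars of 1 SE, filled points for called antigens and dotted lines at 1.5 in either direction. Thy1 lies at 5.17 or more in 4 classes and at 0.30 in pericytes, and the fitted value for Thy1 in SMC has no upper bound because small intestinal SMC had 0 UMIs.

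Sums of immediate early genes, which cells can raise during dissociation, moved with the intestine in 3 FB classes. The 10 genes summed to 13266 and 20492 CPM in small intestinal and 35122 and 43022 CPM in colonic PDGFRahi FB. They summed to 23311 and 29367 against 46812 and 49597 CPM in CD81+ FB, and to 14856 and 22324 against 36565 and 49649 CPM in Fgfr2-high FB. None of the 10 was called in any class, and their part in the antigen differences was not tested. In Fgfr2-low FB, where Thy1, Cd81 and Cd9 were called, the sums overlapped, at 23242 and 31142 against 15925 and 44565 CPM. The 6 markers of endothelial cells, which carry Ly6c1 and Cd34, summed to 10.4 and 6.27 CPM in small intestinal and 6.08 and 5.48 CPM in colonic PDGFRahi FB, with 1 to 4 of the 6 at 0. In Fgfr2-high FB they summed to 120 and 17.3 CPM against 8.09 and 9.14 CPM. In pericytes they summed to 503 and 82.5 CPM against 215 and 194 CPM, and Pecam1, which encodes the CD31 that the sort excluded, stood at 53.0 CPM in pericytes of small intestine replicate 1. That library also held the highest Ly6c1 level of any pericyte sum, 157 CPM, and the part of endothelial RNA in the levels of any class was not tested.

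Whether the pattern over classes as a whole differed between the intestines was tested in 1 edgeR model of all 24 sums of class and library, with library as a block and all class by intestine terms together. At an adjusted p under 0.05, 9 of 10 antigens were called, where 24.0% of 12610 genes were. Thy1 had the lowest adjusted p (2.01e-10), followed by Ly6c1 (9.67e-05) and Cd9 (0.000658). Ly6a did not pass (adjusted p = 0.364). Cd24a (0.00323), Dpp4 (0.00334), Cd81 (0.00355), Itgb1 (0.00927), Cd34 (0.012) and Thbd (0.0238) passed. Dpp4 had 0 UMIs in SMC and pericytes of all libraries, so its terms for these classes have no bound. DESeq2 gave Dpp4 an unadjusted p of 0.000916 and no adjusted p. Calls of Cd9, Thy1 and Ly6c1 held in 10, 9 and 9 of 11 alternative settings, and those of Itgb1 and Thbd in 5 of 11. Without small intestine replicate 1 the count was 5 of 10 and without replicate 2 it was 3 of 10. With doublets kept it was 2 of 10, with Thy1 at an adjusted p of 0.197 and Ly6c1 at 0.169 (edgeR). With the per-cell marker gate it was 0 of 10, the lowest adjusted p being 0.0963 for Cd9, though 7 of 10 had an unadjusted p under 0.05. Calls over all genes fell too, from 3029 of 12610 to 1744 of 12353 with doublets kept and 399 of 12501 with the gate.

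The terms of single classes, given against the mean of the other classes, with no p, show where the patterns parted. For Ly6c1 the colon effect in PDGFRahi FB was 5.80 ± 0.57 above the mean (log2, SE), in Fgfr2-high FB 2.56 ± 0.47 above it, in CD81+ FB 0.05 ± 0.40 from it, and in SMC -4.97 ± 1.02. For Cd9 it was 1.07 ± 0.24 in PDGFRahi FB and 0.97 ± 0.24 in Fgfr2-low FB, against -1.05 ± 0.24 in Fgfr2-high FB. For Cd81 it was 2.78 ± 0.60 in Fgfr2-low FB and -1.95 ± 0.45 in CD81+ FB. For Thy1 no such terms are given, since the fit to 0 UMIs in small intestinal SMC leaves the mean unbounded. The Itgb1 terms were small, the largest being 0.67 ± 0.14 in SMC.

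Sorting reads single cells, so the share of cells with at least 1 UMI was also computed, with each cell thinned to 1500 UMIs and shallower cells left out. These shares understate the cells that express a gene, and exact 95% binomial intervals cover counting error only. Cd81 was read in 52.1%, 41.5%, 60.7% and 57.8% of CD81+ FB in the same order of libraries. In Fgfr2-low FB the Cd81 shares were 0.404% and 0.395% in small intestine, against 13.9% and 7.72% in colon. The lowest share of any class in a library, taken as an upper limit of free RNA, was 0% (0 of 65 SMC, which allows up to 4.62% by a floor of 3 counts and 5.52% by the exact interval) and 0.174% in the small intestinal libraries and 2.86% and 1.97% in the colonic ones, so that the colonic Fgfr2-low share lay above it.

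Thy1 was read in 1.01% and 0.231% of small intestinal and in 33.9% and 19.8% of colonic Fgfr2-low FB. In CD81+ FB its shares were 0.324% and 0.352% against 24.1% and 10.6%. Colonic PDGFRahi FB gave the lowest share, 0.168% and 0.217%, and pericytes had 15.1%, 10.0%, 17.8% and 17.6%, the second from 10 cells. Ly6c1 was read in 0.581% and 0.438% of small intestinal and 22.9% and 20.7% of colonic PDGFRahi FB, while the lowest colonic shares were 0% in SMC of replicate 1 (0 of 242, up to 1.24% by the floor and 1.51% by the exact interval) and 0% in pericytes of replicate 2 (0 of 51, up to 5.88% and 6.98%). Thbd, the antigen of PDGFRahi FB, was read in 65.1%, 60.6%, 63.5% and 41.0% of that class, and in 18.0% to 24.3% of Fgfr2-high FB. Dpp4 was read in 1.57% and 1.13% of colonic CD81+ FB and in at most 0.0876% of any small intestinal MSC class.

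**Figure D3:**
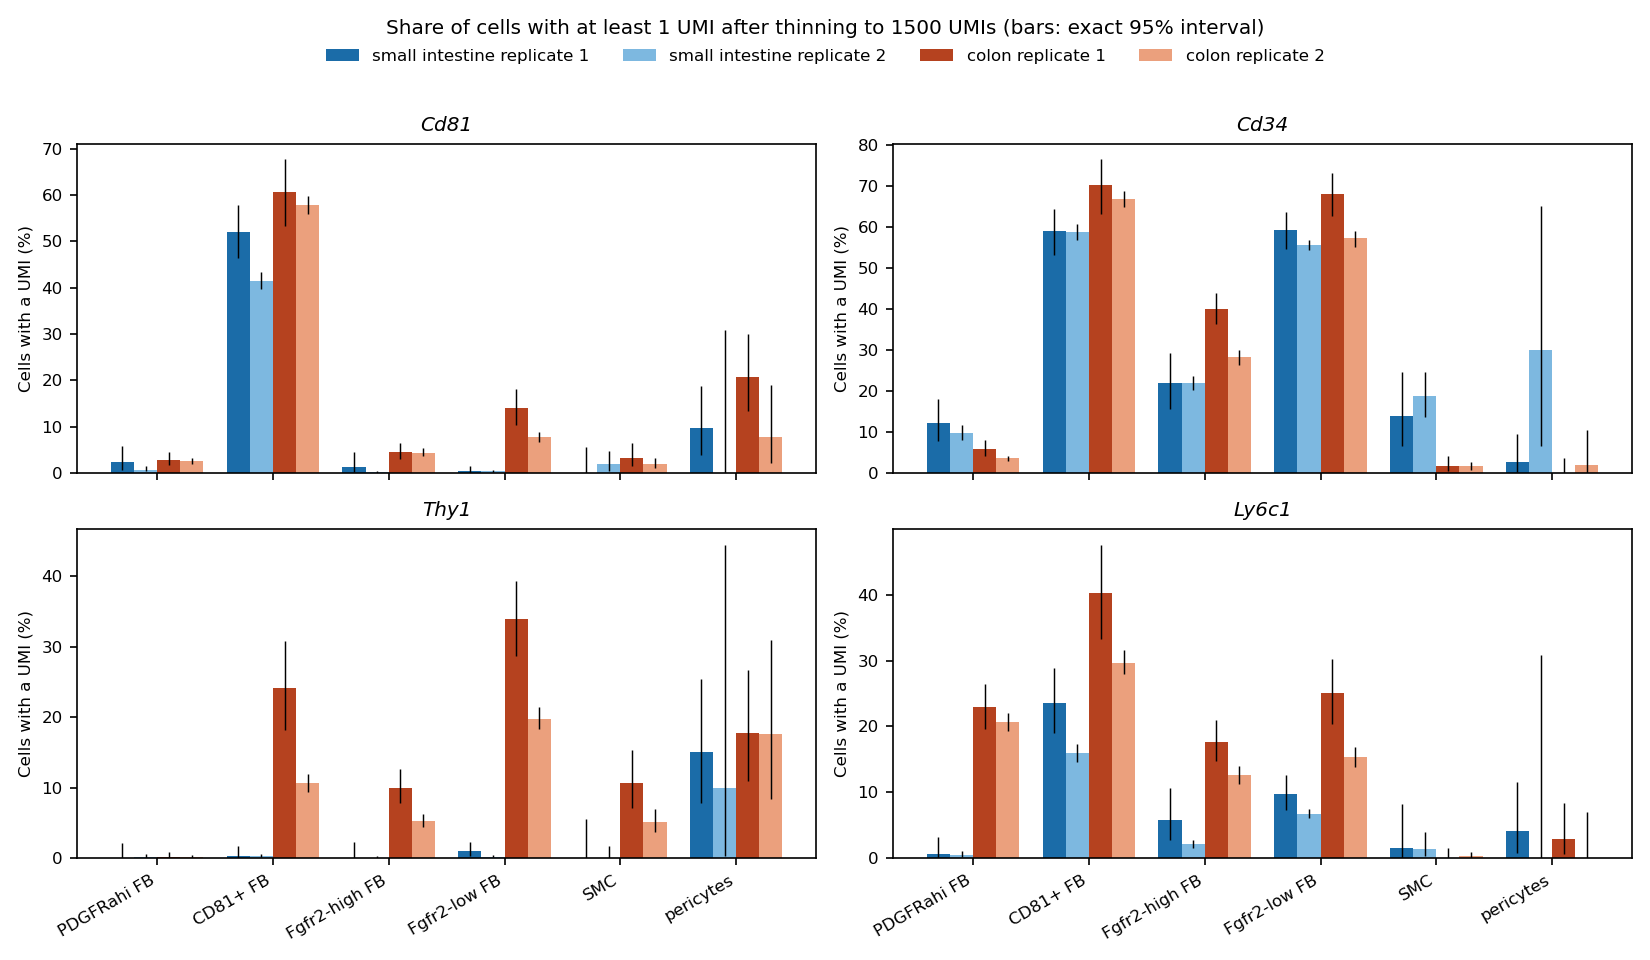
Share of cells with at least 1 UMI of Cd81, Cd34, Thy1 or Ly6c1 after thinning to 1500 UMIs per cell, in percent, by MSC class and library, with exact 95% binomial intervals. Thy1 lies under 1.1% in small intestinal FB and reaches 33.9% in colonic Fgfr2-low FB, whereas Cd34 lies above 55% in CD81+ FB and Fgfr2-low FB of all 4 libraries.

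Antigens are gated in pairs, and the make-up of the cells positive for a pair differed between intestines. Cells with UMIs of both Cd81 and Cd34 were CD81+ FB in 98.9% (of 88 cells) and 97.5% (of 706) in small intestine. In colon they were CD81+ FB in 68.5% (of 130) and 86.4% (of 1065), and Fgfr2-low FB in 22.3% and 10.9%. CD81+ FB made up 24.3% and 22.6% of small intestinal and 9.17% and 21.2% of colonic cells that could be thinned, below its share of the positive cells in each library.

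Cells with both Cd34 and Thy1 numbered 4 and 14 in small intestine, against 142 and 511 in colon. The colonic ones were Fgfr2-low FB in 52.1% and 55.0%, CD81+ FB in 23.2% and 34.8%, and Fgfr2-high FB in 23.2% and 9.20%. Fgfr2-low FB formed 15.2% and 21.8% of the colonic cells. Of the colonic Fgfr2-low FB themselves, 23.4% and 11.5% were read positive for both. Cells with Cd34 and no Thy1 were Fgfr2-low FB in 54.0% and 59.2% in small intestine, and the colonic ones were spread over Fgfr2-low FB (28.1% and 34.3%), CD81+ FB (20.2% and 43.2%) and Fgfr2-high FB (44.5% and 18.7%). A missing Thy1 UMI depends on depth, so these are not cells shown to lack Thy1. With all UMIs in place of 1500 per cell, the colonic Fgfr2-low FB with both genes went from 23.4% and 11.5% to 74.3% and 39%, and those with Cd34 and no Thy1 from 44.6% and 45.7% to 20.7% and 45.6%.

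Cells with both Cd9 and Thbd were PDGFRahi FB in 26.0% and 19.9% in small intestine and in 44.8% and 39.1% in colon. That class formed 13.6% and 9.07% of all small intestinal and 28.5% and 28.8% of all colonic cells that could be thinned, so the higher colonic percentages stand beside a higher share of the class. Most of the rest of this pair lay in the other FB classes. Cells with both Ly6a and Cd34 were Fgfr2-low FB in 54.0% and 57.1% of cases in small intestine, against 38.5% and 36.1% in colon, and CD81+ FB in 36.4% and 34.9% of cases in small intestine, against 22.5% and 47.6% in colon. Fgfr2-low FB formed 39% and 48.3% of all small intestinal cells but 15.2% and 21.8% of all colonic ones, so the pair stood further above the share of the class in the colon. Cells with both Dpp4 and Ly6c1 numbered 0, 1, 1 and 18, and all of them were CD81+ FB.

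**Figure D4:**
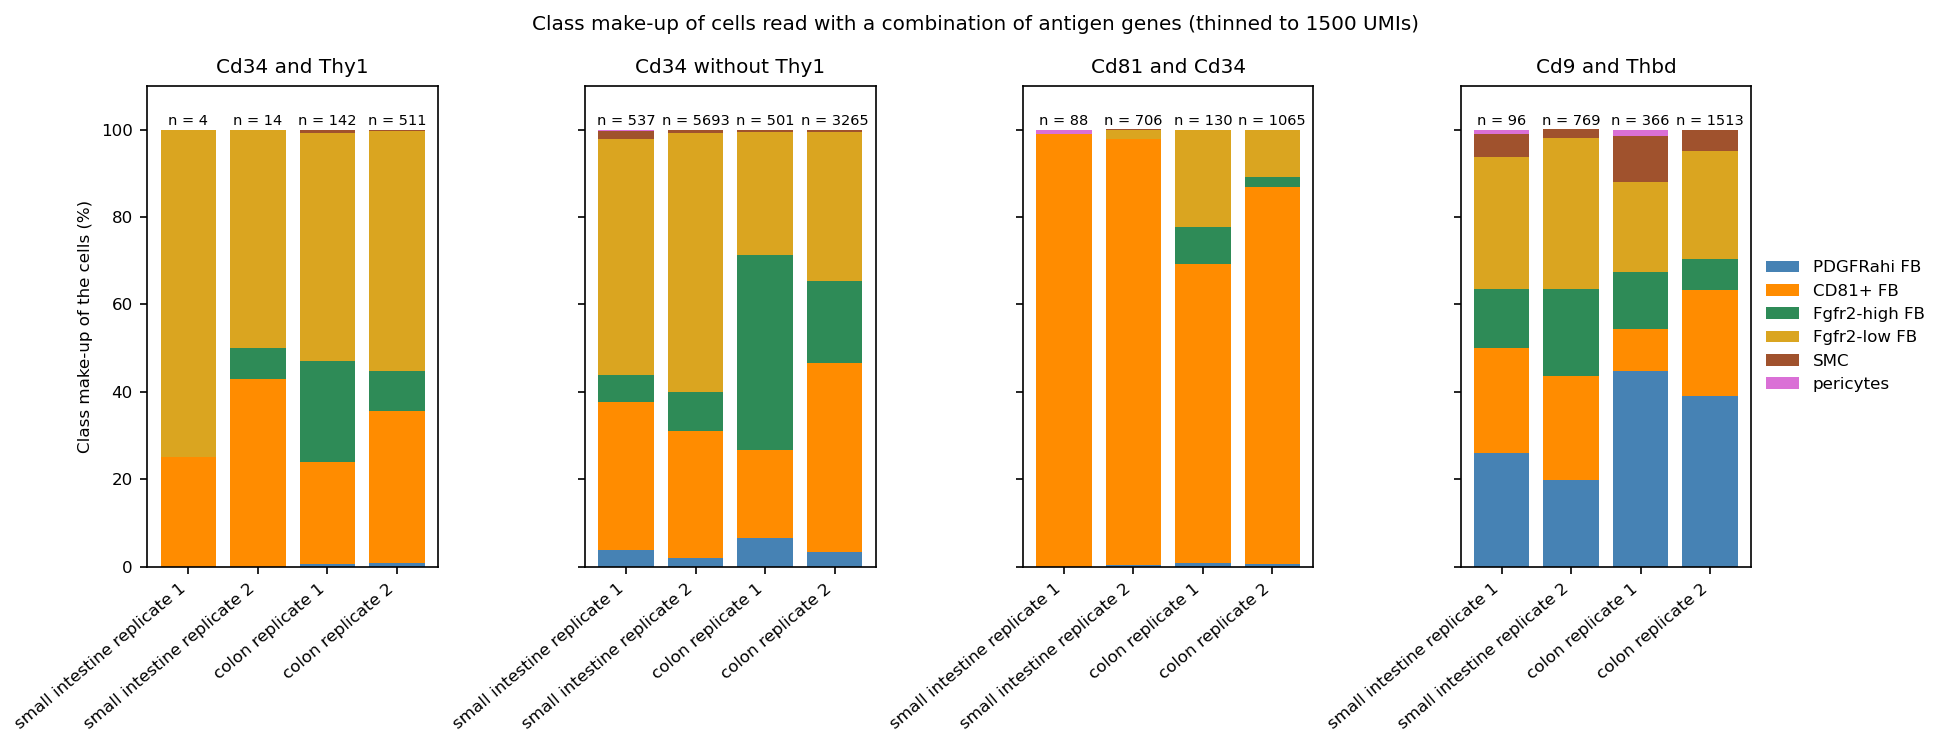
Class make-up of the cells read positive for 4 antigen combinations after thinning to 1500 UMIs, as percent of positive cells per library, with the number of positive cells given for each bar. Bars for Cd81 and Cd34 are nearly all CD81+ FB in small intestine (98.9% and 97.5%) and mixed with Fgfr2-low FB in colon (22.3% and 10.9%).

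PDGFRahi FB and CD81+ FB are known to hold smaller groups, and cells were gated within them on UMIs of marker lists that contain no antigen. The lists for PDGFRahi FB come from the study, which chose them on these cells. Those for CD81+ FB were chosen with earlier results of these data known. All the gates are therefore a description. In PDGFRahi FB the gates were a list of growth factor and inflammatory genes (Nrg1, Fgf7, Il1rl1 and Ptgs2), a list led by Aspn (with Il11ra1, Cxcl12 and Acta2) and a list led by Adamdec1 (with Cxcl10, Wnt4 and Plpp3). A cell went to the list with the most UMIs, at 3 or more.

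Colonic cells of the Nrg1 list, 38 and 301 in number, had 1791 and 1423 CPM of Cd9 and only 26.7 and 15.8 CPM of Thbd. Those of the Aspn list, 308 and 1112 cells, had 521 and 496 CPM of Cd9 and 1553 and 752 CPM of Thbd. The 242 and 1843 cells of the Adamdec1 list lay between, with 756 and 716 CPM of Cd9 and 562 and 313 CPM of Thbd. Cd9 and Thbd therefore ran in opposite orders over the 3 gates in both colonic libraries. The study had told these groups apart by Cd9 and Cd141, the product of Thbd. This order thus follows from how the lists were chosen and is no separate support. Ly6c1 was highest in the Adamdec1 gate, at 347 and 240 CPM, against 161 and 82.0 CPM in the Aspn gate and 140 and 107 CPM in the Nrg1 gate. Cd24a was highest in the Aspn gate, at 46.1 and 35.3 CPM.

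In the small intestine the Nrg1 gate held 1 and 3 cells, too few for a level. The Aspn gate there (144 and 869 cells) had 210 and 155 CPM of Cd9 and 769 and 659 CPM of Thbd, and the Adamdec1 gate (28 and 367 cells) 312 and 180 CPM of Cd9 and 852 and 666 CPM of Thbd. Thbd thus did not fall from the Aspn to the Adamdec1 gate in the small intestine as it did in the colon. The clusters, which hold the same cells, ran the same way without the lists, with colonic PDGFRahi FB in 2 clusters. That of 2227 cells had 473 and 444 CPM of Cd9 and 1546 and 733 CPM of Thbd. The other, of 1709 cells and led by Il1rl1 and Nrg1, had 1040 and 998 CPM of Cd9 and 309 and 117 CPM of Thbd. In small intestine all PDGFRahi FB lay in 1 cluster.

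In CD81+ FB a list of Pi16, Sema3c and Cd55, genes of fibroblasts around large vessels, was set against a list of Ackr4, Grem1 and Rspo3, genes of submucosal fibroblasts that feed the crypt base. Ly6c1 was higher in the Pi16 gate in every library, at 652 and 405 CPM against 127 and 84.5 CPM in small intestine and 780 and 380 CPM against 251 and 184 CPM in colon. Cd34 went the same way, with 1083 and 883 against 654 and 572 CPM in small intestine and 1278 and 972 against 930 and 630 CPM in colon. Dpp4 stood at 18.3 and 10.7 CPM in the colonic Pi16 gate and at 4.25 and 3.63 CPM in the colonic Ackr4 gate. Cd81 went the other way in the small intestine, with 396 and 315 CPM in the Pi16 gate and 598 and 463 CPM in the Ackr4 gate, whereas in colon it was 812 and 637 CPM against 769 and 549 CPM. Cd24a in small intestinal CD81+ FB lay mostly outside the Pi16 gate, at 1.87 and 7.44 CPM inside it and 47.6 and 31.3 CPM in the Ackr4 gate.

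**Figure D5:**
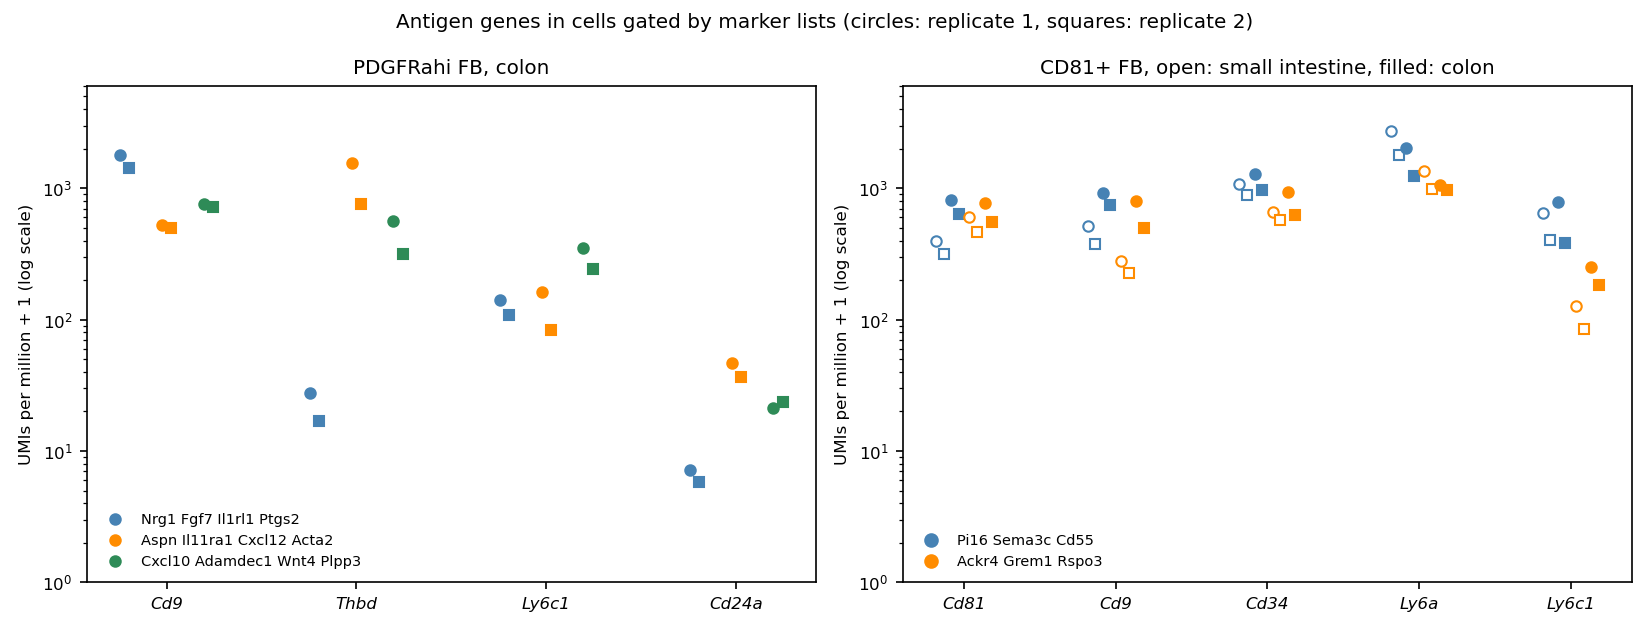
Levels of selected antigens, as CPM + 1 on a log axis, in cells of colonic PDGFRahi FB and of CD81+ FB of both intestines gated by marker lists that hold no antigen, with 1 point per library and a colour per list. In colonic PDGFRahi FB, Cd9 is highest in the Nrg1 gate (1791 and 1423 CPM), where Thbd is lowest (26.7 and 15.8 CPM).

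The antigens were set beside the families they belong to. Of 27 tetraspanins, 14 to 20 were tested in a class, and 1 was called in Fgfr2-high FB and 2 in Fgfr2-low FB, where 1.15% and 1.90% of all genes tested were called. The 2 were Cd81 and Cd9, and the 1 was Tspan13, which rose from 0.906 and 1.16 CPM to 15.5 and 11.2 CPM (log2 fold change 3.70 ± 0.44, adjusted p = 0.0389, edgeR) and stood at 149 to 384 CPM in PDGFRahi FB. The median log2 fold change over the tested tetraspanins was 0.27 and 0.53 in these 2 classes. Cd63 was the tetraspanin with the most UMIs, with 628 to 1675 CPM over all classes and libraries and no call in any class. Of 26 LY6 family genes, 3 to 8 were tested in a class and only Ly6c1 was called, in PDGFRahi FB and Fgfr2-high FB, beside 1.69% and 1.15% of all genes. Ly6e, the second of the family by mean CPM, had a log2 fold change under 0 in each of the 6 classes and was called in none. In PDGFRahi FB it stood at 2407 and 1355 CPM in small intestine and 936 and 485 CPM in colon (log2 fold change -1.28 ± 0.45, adjusted p = 0.323, edgeR).

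Itgb1 pairs with an alpha chain that sets what the receptor binds. Of 12 alpha chains that pair with it, 5 to 11 were tested in a class, and calls came in 3 classes, 2 in PDGFRahi FB, 1 in Fgfr2-high FB and 1 in SMC, where 1.69%, 1.15% and 2.27% of all genes were called. In PDGFRahi FB, Itga11, a collagen receptor chain, fell from 234 and 250 CPM to 50.7 and 37.7 CPM (log2 fold change -2.32 ± 0.27, adjusted p = 0.0320, edgeR). Itga4, a chain that binds fibronectin and VCAM-1, rose there from 2.61 and 1.65 CPM to 25.1 and 38.9 CPM (4.14 ± 0.50, adjusted p = 0.0371, edgeR). Itga4 also rose in Fgfr2-high FB (3.55 ± 0.40, adjusted p = 0.0345, edgeR), and Itga8 rose in SMC (2.84 ± 0.42, adjusted p = 0.0258, edgeR). The beta chain itself had log2 fold changes of -0.14 ± 0.26 in PDGFRahi FB, 0.13 ± 0.23 in Fgfr2-high FB and 0.61 ± 0.26 in SMC, with adjusted p of 0.386 or more in the 3 classes.

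Other antigens of the sort were checked in the same way. Ptprc, Pecam1, Bst1, Epcam and L1cam, which encode the excluded CD45, CD31, BP3, EpCAM and L1CAM, were too low to be tested in any class. Pdgfra ran from 664 to 2112 CPM in PDGFRahi FB and from 122 to 236 CPM in the other FB classes, with 2112 and 1968 CPM in small intestinal and 1006 and 664 CPM in colonic PDGFRahi FB (log2 fold change -1.16 ± 0.31, adjusted p = 0.181, edgeR). Esam, an adhesion molecule of vessels, ran from 291 to 454 CPM in pericytes and 119 to 182 CPM in SMC, and stayed at or under 2.72 CPM in the FB classes. Mcam, which encodes CD146, ran from 143 to 315 CPM in pericytes and from 37.4 to 91.8 CPM in SMC.

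Lastly, each antigen was compared with 8682 genes of at least 10 CPM by Pearson correlation of log2(CPM + 1) over the 24 sums of class and library. These values are a description with no p, because sums of a library share its depth and processing. The closest gene was Tpm1 for Itgb1 (r = 0.948), Fuca1 for Ly6a (0.927), Entpd2 for Cd34 (0.926) and Gngt2 for Cd81 (0.886). It was Wisp1 for Thbd (0.874), Rps2 for Ly6c1 (0.870), Sfrp4 for Dpp4 (0.861) and Lgals3 for Cd9 (0.847). The antigens with the least like partners were Thy1, with Rcan2 (0.781), and Cd24a, with Pdgfrl (0.767). Bmp3, a marker used to name PDGFRahi FB, came after Wisp1 and Cd164 for Thbd (0.870), and Pi16 was second for Dpp4 (0.749, with 0.458 over the small intestinal and 0.924 over the colonic sums).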

How the data were processed

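MSC of 2 small intestinal and 2 colonic libraries were profiled by droplet single-cell RNA-seq. The authors aligned reads to mm10 with Cell Ranger (3.0.2 for all libraries in the submitters' processing notes, 3.0.2 for replicate 1 and 3.1.0 for replicate 2 in the file headers), and deposited whole-number UMI counts with no normalization, by gene and barcode, over 28692 gene rows. The submitters' notes also name Seurat 3. Totals ran from 14341443 to 52269372 UMIs per library, and depth limits what can be said of genes with few UMIs. Intervals and floors cover counting error only.

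Barcodes under 500 genes or 1000 UMIs, or over 10% mitochondrial UMIs, were dropped. The labels do not say that doublets were removed before deposit, and scrublet in scanpy 1.11.5 (Python 3.11.15, expected rate 8 per 1000 barcodes) removed 0.327% and 5.98% of the small intestinal and 1.32% and 4.57% of the colonic barcodes that passed. The 2 libraries of each intestine were joined by anchors in Seurat 5.3.0 (R 4.3.3) over 2000 variable genes, without the antigens, the other sort genes or immunoglobulin genes. Cell cycle scores were regressed out, 30 components and resolution 0.5 were used, and endothelial, plasma, interstitial and glial clusters were removed before a second round. Clusters were named by the MSC marker panel with the largest average log2 fold over other cells (pseudocount 10 CPM, minimum score 0.25, at least 3 markers in at least 1% of cells), or by a panel of other cells where that scored higher and at least 1.5. FB clusters left over were Fgfr2-high at 50% or more of the highest Fgfr2 level among them, and 1 small intestinal cluster of 289 cells led by interferon genes stayed unnamed and out of the classes.

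UMIs were summed per class and library and scaled to CPM. Sums of at least 20 cells were tested in edgeR 4.0.16 (filterByExpr, TMM, quasi-likelihood test, adjustment over all genes tested), with DESeq2 1.42.0 as an alternative. The test recovered 99.5% to 100% of 200 genes simulated with a log2 fold change of 3, per class, in steps on 4409 to 11948 genes. False calls numbered 2 to 8 per class. The simulated counts had a fixed dispersion and no replicate effect. Only genes with more than 20 expected UMIs in the smallest library were changed. Recovery of antigens with few UMIs, or at the spread of these libraries, was therefore not measured. Shares used cells thinned to 1500 UMIs, with exact intervals. Gene positions and the Ly6c sequences were read from GENCODE annotation of GRCm38. The antigens are named throughout, with other sort genes, called or most abundant members of 3 family lists, and the genes most like each antigen. The members and lists were chosen with earlier results of these data known, and several lists come from the study itself. Libraries share replicate numbers, but labels do not say what a number marks, so no block entered the tests. Alternatives were other tools and filters, each library left out, doublets kept, a per-cell marker gate, joint clusters, other folds and other depths.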

Additional observations from a re-analysis of the deposited data

Results flagged for a closer look

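In 9 of 10 antigens the difference between intestines itself differed between the MSC classes, by the edgeR test of all class by intestine terms. The adjusted p was 2.01e-10 for Thy1, 9.67e-05 for Ly6c1, 0.000658 for Cd9, 0.00323 for Cd24a, 0.00334 for Dpp4, 0.00355 for Cd81, 0.00927 for Itgb1, 0.012 for Cd34 and 0.0238 for Thbd, beside 24.0% of all genes called by the same test. Thy1 was high in the colon and near 0 in the small intestine in 4 classes. In pericytes it stood at 120 and 41.3 CPM in small intestine, the second from 2 UMIs, against 117 and 114 CPM in colon. Ly6c1 was high in colonic and near 0 in small intestinal PDGFRahi FB. Dpp4 had 0 UMIs in SMC and pericytes of all libraries.

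Cells outside the 6 classes also carried antigens. A small intestinal cluster of 289 cells led by interferon-induced genes had 3726 and 1990 CPM of Ly6a in replicates 1 and 2, above the 1669 and 1178 CPM of the highest class, CD81+ FB. The endothelial cells that the clustering removed, although the sort had excluded CD31, had 3501 and 616 CPM of Ly6c1 in small intestine replicates 1 and 2 and 4677 and 1827 CPM in colon replicates 1 and 2. The second of these values rests on 6 cells.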

How the results depend on the processing

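Called antigens per class changed with the setting as follows. In PDGFRahi FB the count of 1 became 3 with DESeq2, 3 with no filter on low counts, 3 with the replicate block, 0 with doublets kept and 0 with a per-cell marker gate, and ran from 0 to 3 with single libraries left out. In CD81+ FB the count of 2 became 1 with doublets kept and 1 with the gate, and ran from 1 to 3 without single libraries. In Fgfr2-high FB the count of 2 became 1 with the gate, was 3 with DESeq2, with no filter, with the block and with at least 1000 genes per cell, and ran from 0 to 3 without single libraries. In Fgfr2-low FB the count of 3 became 1 with the gate and 1 with joint clusters, and ran from 0 to 2 without single libraries, while doublets kept could not be fitted because the colonic cluster, with 2922 cells, was then named plasma (score 1.745 against 1.06 for its FB panel) and removed. In SMC the count of 2 became 1 with doublets kept and 1 with the gate, and ran from 2 to 3 without single libraries. In pericytes the count of 0 became 1 with at least 1000 genes per cell and ran from 0 to 1 without single libraries. The 9 antigens whose class pattern differed between intestines became 2 with doublets kept, over 5 classes, and 0 with the gate, and ran from 3 to 8 without single libraries. Leaving out pericytes, chosen after seeing the data, gave 8. Over all genes this test called 3029 of 12610, against 1744 of 12353 with doublets kept and 399 of 12501 with the gate. The 34 separated combinations of antigen and class pair became 21 with the gate and 22 at 3 times in place of 2 times. Where a fit left 1 library in an arm, it was assumed to vary like the other intestine.

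Replicate numbers are not said to mark shared animals, and with 2 pairs the deviations of same-numbered libraries correlated at 0.476 to 0.729 over genes. With the replicate block the counts were 3, 2, 3, 4, 3 and 0 in the order PDGFRahi FB, CD81+ FB, Fgfr2-high FB, Fgfr2-low FB, SMC and pericytes. Over all genes, calls in PDGFRahi FB were 195, and 584 with DESeq2, 600 without the filter and 962 with the block. They were 100, 239, 440 and 482 in CD81+ FB, 138, 399, 443 and 764 in Fgfr2-high FB, 228, 526, 475 and 784 in Fgfr2-low FB, 213, 310, 618 and 621 in SMC, and 0, 4, 26 and 7 in pericytes. They fell to 0 without small intestine replicate 1 or 2 in PDGFRahi FB and Fgfr2-high FB and without replicate 2 in Fgfr2-low FB.

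No antigen was called in opposite directions under these settings. The leading class of an antigen's share was the same in 34 of 40 cases at 1000 UMIs, the leading class of a combination in 19 of 23, and the gate with the highest level of an antigen in 80 of 80 at 5 list UMIs. Depth limits Dpp4, and Thy1 in the small intestine, where single UMIs decide a level.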

Other observations

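In the small intestinal cluster led by interferon-induced genes, Ly6c1 stood at 305 and 189 CPM and Cd34 at 634 and 444 CPM, with Cd81 at 18.8 and 21.2 CPM and Thy1 at 4.70 and 1.11 CPM. Colonic Fgfr2-high FB comprised 3 clusters. Their cluster led by Cxcl9, with 632 cells, had the highest Ly6c1 of the 3, at 431 and 283 CPM, and the lowest Cd34, at 200 and 94.3 CPM. The cluster of 1775 cells led by Ccl11 had 61.3 and 41.0 CPM of Ly6c1 and 489 and 295 CPM of Cd34. Thy1 was lowest in the Cxcl9 cluster, at 27.8 and 25.5 CPM, against 91.7 and 38.7 CPM in the Ccl11 cluster.

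Among small intestinal CD81+ FB, the cluster of 755 cells led by Pi16 had 692 and 438 CPM of Ly6c1 against 127 and 74.9 CPM in the cluster of 2589 cells led by Cd81, and 1130 and 926 against 629 and 560 CPM of Cd34. Removed endothelial cells carried 9 of the 10 antigens at a level above 100 CPM in small intestine replicate 1, Dpp4 being at 0.614 CPM. In the removed plasma cells Dpp4 stood at 27.9 and 55.2 CPM in small intestine (56 and 9 UMIs) and at 0 in both colonic libraries.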
